A study of Homo sapiens with 24 samples.

Results

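The zinc finger genes of chromosome 19 were taken from the deposited count table as every protein-coding row on that chromosome whose symbol starts with ZNF followed by a digit. They made up 257 of the 48162 rows of the table, under 246 symbols, since 11 symbols had 2 rows each. The table held 1481 protein-coding rows on chromosome 19 in all, and a further 264 protein-coding ZNF rows on other chromosomes. Of the 257 rows, 44 were listed at 0 in all 24 libraries, and 123 had enough counts to be tested between polyploid giant cancer cells (PGCC) and parental cells.

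Most of these genes encode transcription factors with a row of C2H2 zinc fingers, small loops folded around a zinc ion that read DNA bases. In many of them a KRAB domain precedes the fingers. KRAB binds the scaffold protein TRIM28 (KAP1), which brings the histone H3 lysine 9 methyltransferase SETDB1, HP1 proteins and DNA methyltransferases to the bound site, and the best known targets are transposable elements. The genes arose by repeated local duplication and stand in long runs of neighbours on chromosome 19, so many have close copies beside them, and their own 3' ends are among the known sites of this repressive chromatin.

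The libraries came from PPC1, an established human prostate cancer cell line, in 4 conditions with 6 libraries each. Parental cells (UT) were plated on day 1 and harvested on day 5 without treatment. PGCC had received 8 Gy of radiation on day 2 and were captured on a 20 micron filter at the harvest on day 5. The groups UT_LCL and PGCC_LCL were made the same way, with 5 µM LCL521, an inhibitor of the lysosomal enzyme acid ceramidase (ASAH1), given for 5 h before harvest. The experiment was done 6 times, and libraries with the same replicate number came from the same run of it. Parental cells were neither irradiated nor filtered, so radiation, filtration and giant cell state cannot be told apart between PGCC and parental cells. All libraries came from 1 cell line, and each measured a bulk of cells, so that fewer cells of a type and less RNA per cell cannot be told apart. Levels in CPM, counts scaled to a library total of 1000000, are also relative to that total and say nothing of the amount of RNA per cell.

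Each library held between 14835246 and 19906601 counts, and 3 counts, the limit that a count of 0 allows, corresponded to between 0.151 and 0.202 CPM. The zinc finger rows took between 0.202% and 0.212% of the counts in parental cells and between 0.175% and 0.203% in PGCC. The 8 libraries of replicates 4 and 5 stood apart from the other 16 on the second principal component, with scores of at least 10.8 against at most -2.89, and results that rest on them are given with and without them. All 5 proliferation markers examined rose in PGCC, and their summed level was 115 to 381 CPM in parental cells, 292 to 381 CPM in replicates 4 and 5 alone, and 866 to 1062 CPM in PGCC. Of the prostate luminal markers, KLK3, KLK2 and FOLH1 had 0 counts in every library, and HOXB13 alone was tested. It fell in PGCC, from 745 ± 112 to 427 ± 85.0 CPM (SD, n = 6 each), with a log2 fold change of -0.80 (adjusted p = 0.000213, edgeR) and of -0.82 with LCL521 in both groups. Leukocyte markers summed to 0.464 to 2.97 CPM in parental cells and to 2.84 to 4.43 CPM in PGCC, with CD3E at no more than 1 count. PTPRC, the only 1 of them tested, rose by 1.39 (adjusted p = 0.0164, edgeR). With LCL521 in both groups PTPRC rose by 1.25 (adjusted p = 0.0109, edgeR). Endothelial markers summed to at most 1.34 CPM, epithelial keratins and adhesion genes to 782 to 1032 CPM in parental cells and 966 to 1478 CPM in PGCC, and fibroblast markers to 49.8 to 133 and 79.4 to 206 CPM. The epithelial genes did not move together: KRT8 (1.35) and KRT19 (0.42) rose and KRT18 (-0.46) fell by the edgeR test, while CDH1 gave -0.61 (adjusted p = 0.0964, edgeR) and fell by 1.18 with LCL521 in both groups. The part of these differences in the results was not tested.

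The promoters of the genes were searched for short sequence motifs. RefSeq (GRCh38.p14) gave the 250 bases before the start of 212 of the 246 symbols, and 5 short motifs were searched in them on both strands and compared with the promoters of 13804 other protein-coding genes. The motifs were chosen after the letters of these promoters had been counted, so their shares describe these promoters and test nothing. Many of the genes are local copies of one another, so their promoters are not independent. CCGGAAG, the core bound by ETS factors, was found in 31.6% of the zinc finger promoters and in 11.6% of the others. CCAAT, the box bound by NF-Y, was in 50.9% against 34.3%. CTACANTTC, the core of a motif bound by the zinc finger protein ZNF143, was in 11.8% against 1.49%. TATAAA was rare in them, with 1.89% against 9.09%, and the GC box GGGCGG was in 64.6% against 56.8%. Matches could overlap one another, since the reverse complement of the ETS core and the ZNF143 motif share the letters TTC. ZNF genes of other chromosomes lay between, with 28.2%, 42.7% and 7.28% for the first 3 motifs, whereas other protein-coding genes of chromosome 19 had 11.6%, 36.6% and 1.86%. The zinc finger promoters also had a median GC content of 59.6%, against 62.8% in the others.

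The promoters of 6 genes are shown because they belong to the 3 genes with the largest rises and the 3 with the largest falls in PGCC, among the well-measured genes described below, that have a RefSeq promoter. They lie at chr19:21081953-21082202 on the plus strand (ZNF714), chr19:57599635-57599884 on the plus strand (ZNF530), chr19:36215085-36215334 on the minus strand (ZNF565), chr19:58476102-58476351 on the plus strand (ZNF446), chr19:55640752-55641001 on the plus strand (ZNF580) and chr19:2944972-2945221 on the minus strand (ZNF77), all in GRCh38.p14. Capitals mark a match to the ETS core, the CCAAT box or the ZNF143 motif in either orientation, and each line runs 5' to 3' on the strand of its gene.
ZNF714: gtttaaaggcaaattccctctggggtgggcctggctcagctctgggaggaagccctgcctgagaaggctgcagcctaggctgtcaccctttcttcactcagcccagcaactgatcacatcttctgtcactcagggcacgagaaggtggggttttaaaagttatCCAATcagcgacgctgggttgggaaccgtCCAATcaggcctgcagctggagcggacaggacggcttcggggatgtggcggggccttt
ZNF530: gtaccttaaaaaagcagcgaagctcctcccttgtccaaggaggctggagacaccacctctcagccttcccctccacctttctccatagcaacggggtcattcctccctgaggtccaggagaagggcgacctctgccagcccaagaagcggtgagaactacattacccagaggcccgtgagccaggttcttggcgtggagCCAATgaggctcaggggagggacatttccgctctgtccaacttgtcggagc
ZNF565: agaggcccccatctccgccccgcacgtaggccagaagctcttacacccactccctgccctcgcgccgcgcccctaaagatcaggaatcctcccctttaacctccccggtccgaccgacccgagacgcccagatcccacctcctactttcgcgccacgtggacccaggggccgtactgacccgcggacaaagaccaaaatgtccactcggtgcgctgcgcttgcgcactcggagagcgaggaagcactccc
ZNF446: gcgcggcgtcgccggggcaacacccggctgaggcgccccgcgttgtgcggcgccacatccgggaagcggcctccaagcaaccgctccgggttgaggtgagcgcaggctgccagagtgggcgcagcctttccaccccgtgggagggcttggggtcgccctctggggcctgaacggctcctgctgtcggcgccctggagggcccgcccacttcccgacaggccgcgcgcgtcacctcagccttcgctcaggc
ZNF580: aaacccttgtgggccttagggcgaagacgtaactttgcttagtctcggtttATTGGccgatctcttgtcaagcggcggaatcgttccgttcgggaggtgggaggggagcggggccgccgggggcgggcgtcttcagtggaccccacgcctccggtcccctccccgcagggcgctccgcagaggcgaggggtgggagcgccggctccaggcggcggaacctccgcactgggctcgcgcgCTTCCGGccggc
ZNF77: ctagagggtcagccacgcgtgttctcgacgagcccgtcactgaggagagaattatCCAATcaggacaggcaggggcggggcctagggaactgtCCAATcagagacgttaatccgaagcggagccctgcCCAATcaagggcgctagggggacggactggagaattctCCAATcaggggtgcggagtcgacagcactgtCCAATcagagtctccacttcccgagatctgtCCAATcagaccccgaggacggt
The promoter of ZNF77 held 6 CCAAT boxes, that of ZNF714 held 2, those of ZNF530 and ZNF580 held 1 each, and ZNF580 also had 1 ETS core close to its start. ZNF565 and ZNF446 had no match in this window, which says only that these letters are not there. Set beside the calls in PGCC given further on, the ETS core was in 28.6% of 7 promoters of genes that rose, 34.2% of 38 that fell and 35.8% of 67 not called. The ZNF143 motif was in 0 of the 7, in 10.5% and in 20.9% of the same groups, and CCAAT in 42.9%, 42.1% and 52.2%.

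Levels differed widely between the genes. Of the 134 rows that were not tested between PGCC and parental cells, 44 were at 0, 74 had between 1 and 23 counts over all 24 libraries together, and 16 had 24 or more, at most 228. The tested genes were modest in level, with a median of 9.0 CPM against 25.0 CPM for all genes tested. Per kilobase of the deposited gene length, the highest level was that of ZNF787, with a mean of 62.4 CPM per kilobase over the 24 libraries and a range of 44.0 to 101. ZNF579 followed with 43.4 (33.8 to 54.8), ZNF146 with 39.9 (31.5 to 52.0), ZNF581 with 36.8 (27.5 to 52.3) and ZNF121 with 29.3 (19.6 to 46.1) CPM per kilobase. The library ranges of each pair of neighbours in this order overlapped. The next genes, ZNF317 at 19.2 and ZNF580 at 19 CPM per kilobase, were well below ZNF787 in every library, while the range of ZNF580 (9.61 to 36.3) reached into those of the genes above it. None of the 5 highest had a KRAB match in its reading frame. ZNF146 (OZF) is known as a protein made of little but fingers, and the other 4 also carry fingers without a KRAB box in the frames read here.

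PGCC were compared with parental cells, which were neither irradiated nor filtered, to find which of these genes differ in level. More of them fell than rose. Of the 123 genes tested, 8 rose and 41 fell, 6.50% and 33.3%, while among all 13812 genes tested 23.1% rose and 24.3% fell, 47.4% in either direction. The median log2 fold change over the 123 was -0.26, with 88 below 0, against a median of -0.03 over all genes. The falls were mostly small: 3 of the 41 were larger than 2-fold, as were 4 of the 8 rises. Of the genes tested, 112 were past the filter's level of 0.569 CPM in all 12 libraries, and these gave 5 of the rises and 38 of the falls. The other 3 rises, ZNF114, ZNF699 and ZNF426, entered the test through the PGCC libraries, and ZNF575, ZNF235 and ZNF285, which fell, were past that level in all 6 parental libraries and in 4 or 5 of PGCC. A gene was counted as changed at an adjusted p under 0.05 in the quasi-likelihood test of edgeR, adjusted after Benjamini and Hochberg over all genes tested, and errors of fold changes are standard errors. For 21 genes all PGCC libraries lay below all parental libraries and for 6 all lay above, 17.1% and 4.88%, against 12.9% and 13.9% of all genes. The median difference within the 6 same-numbered pairs of libraries was -0.36, -0.16, -0.14, -0.34, -0.31 and -0.09, each below 0.

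The split between rises and falls depended on the scaling. With library totals in place of TMM factors, the median of all genes moved up by 0.0943 on the log2 scale, and 14 zinc finger genes rose and 32 fell, beside 27.7% and 18.3% of all genes in that scaling, so that rises made up 30.4% of the calls in place of 16.3%. The median of the zinc finger genes was then -0.16, below the median of all genes of 0.07. With the replicate number as a block, 15 rose and 45 fell, against 27.9% and 28.3% of all genes (56.2% in either direction). The block lost none of the 49 calls and added 7 rises (ZNF134, ZNF431, ZNF443, ZNF121, ZNF675, ZNF823 and ZNF799) and 4 falls (ZNF554, ZNF780A, ZNF628 and ZNF331). Without replicates 4 and 5 the counts were 10 and 39, against 27.7% and 26.9% of all genes, and the median was -0.17. In replicates 4 and 5 alone 13 of 124 rose and 37 fell, against 23.6% and 22.1% of all genes, with a median of -0.35. Of the 49 genes called, 48 could be fitted in both sets of replicates, all 48 had the same direction in both, and 30 passed the threshold in both. The 49 were called on these same libraries, so that agreement in direction is largely built in and is no replication. The same shares over all genes called are not given here.

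**Figure D1:**
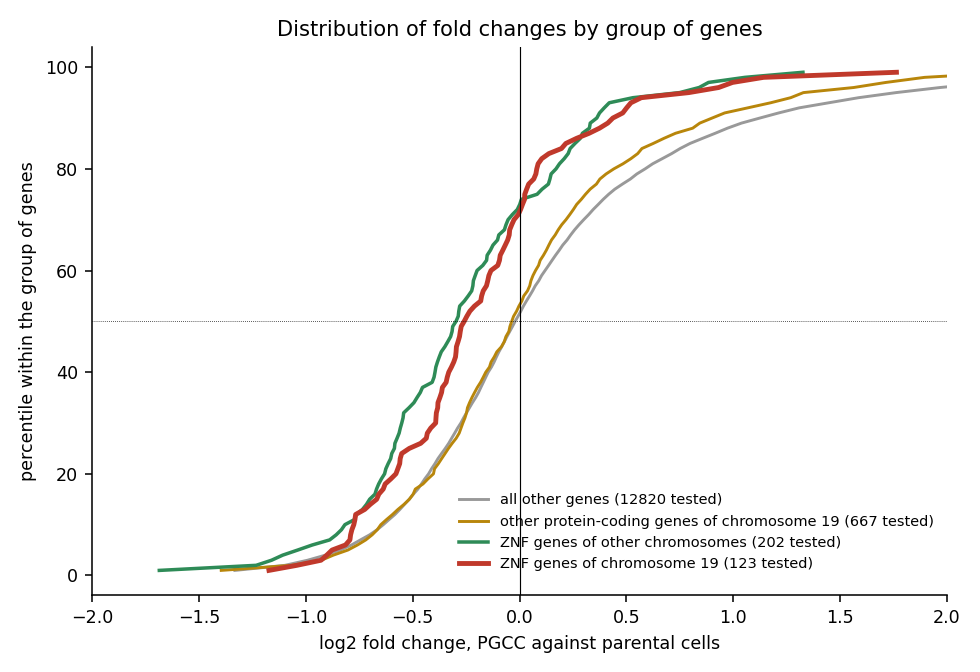
Percentiles of the log2 fold change of PGCC against parental cells (x axis) within 4 groups of genes (y axis, percent of the group at or below the value). The zinc finger genes of chromosome 19 (123 tested, median -0.26) and ZNF genes of other chromosomes (202 tested, median -0.30) run to the left of other protein-coding genes of chromosome 19 (667 tested, median -0.04) over most of the range.

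ZNF genes elsewhere in the genome gave values like these, and the other genes of chromosome 19 gave a median closer to 0. On other chromosomes 202 ZNF genes were tested, of which 17 rose and 87 fell, 8.42% and 43.1%, with a median of -0.30. Of 667 other protein-coding genes of chromosome 19, 141 rose and 175 fell, 21.1% and 26.2%, with a median of -0.04. Under library totals the medians were -0.20 and 0.06, in the same order. No test of the differences between these groups was made, since genes are not replicates of a condition. Only 1 of the 6 genes of chromosome 19 named ZFP had enough counts to be tested, and it did not pass the threshold.

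**Figure D2:**
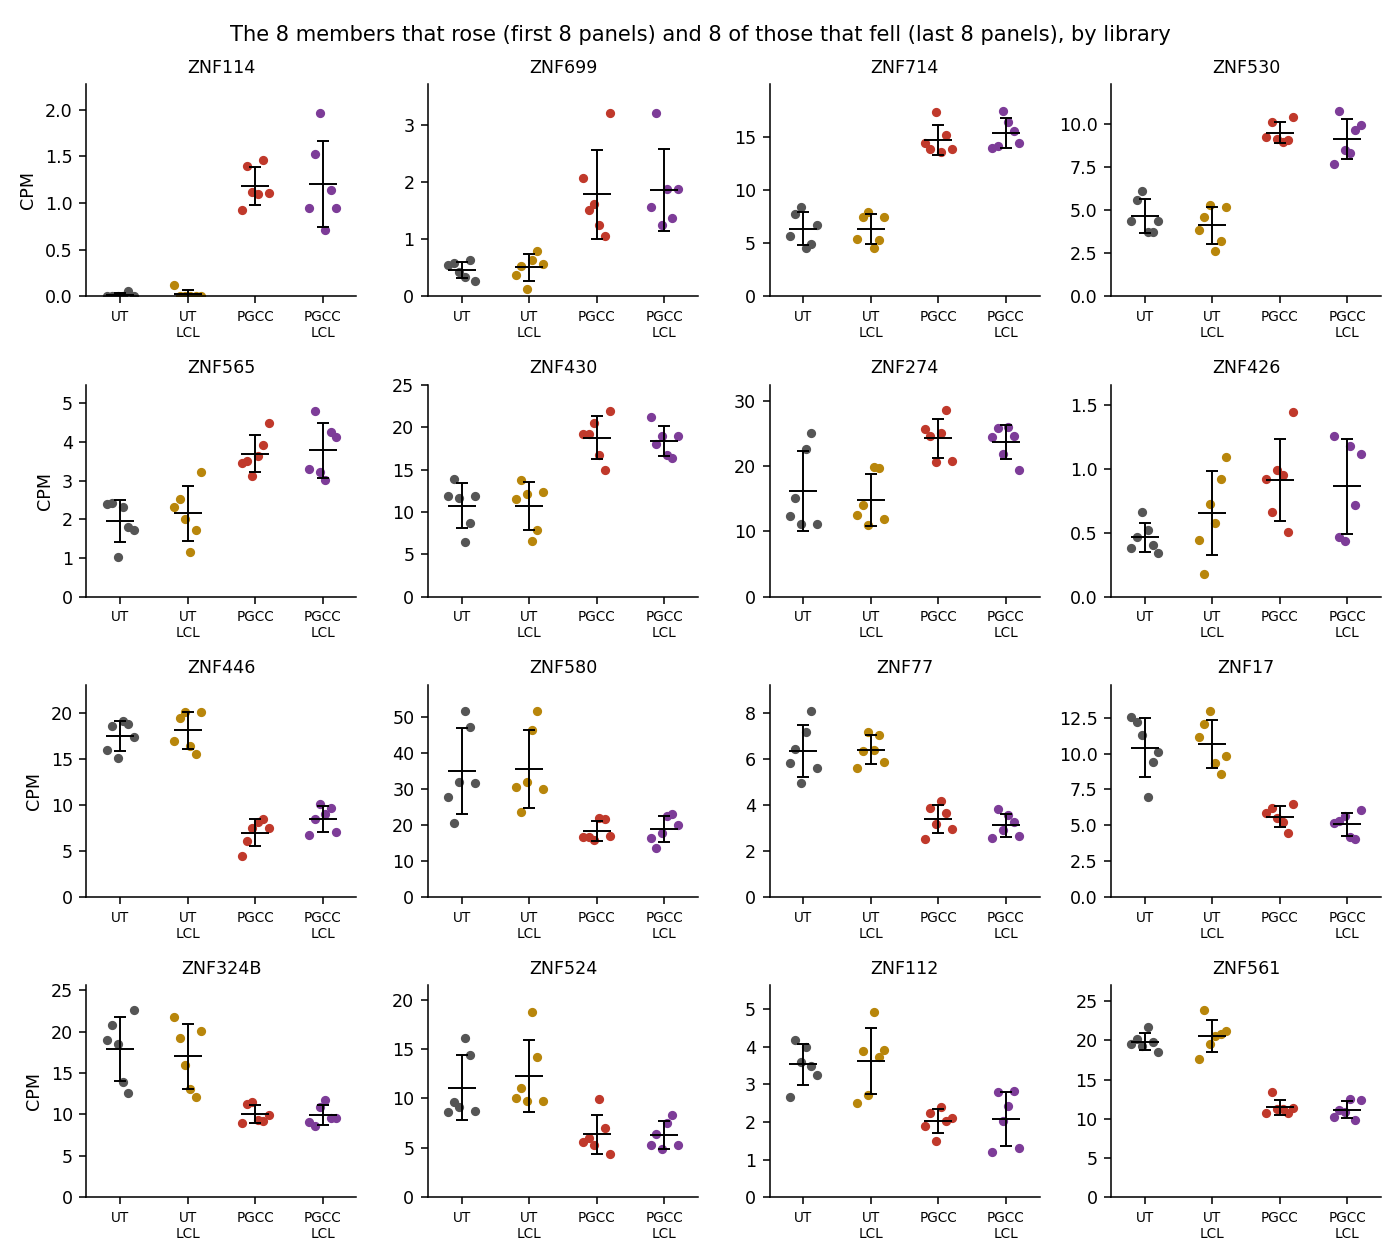
Level in CPM (y axis, from 0, a scale for each gene) in the 24 libraries for the 8 genes that rose in PGCC (first 8 panels) and 8 of the genes that fell (last 8 panels). Points are libraries, horizontal bars the mean of 6 and vertical bars the SD. ZNF714 lay between 13.6 and 17.4 CPM in PGCC and between 4.58 and 8.42 CPM in parental cells, and each LCL521 group overlapped its own control in every panel.

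ZNF114 gave the widest contrast of the 8 genes that rose. It is a KRAB gene with 3 finger patterns at 48675575 to 48790865 on the plus strand of chromosome 19 (hg19, the build of the deposited coordinates throughout). Over the 6 parental libraries it had 1 count in all, in replicate 5, and over the 6 PGCC libraries 128 counts, between 16 and 29 in each. The ratio of the rates was 129, with a 95% exact interval of 22.7 to 5132 that covers counting error only. The gene passed the filter on low counts through the PGCC libraries alone, and its fitted fold change depends on the prior count. Its span overlaps CARD8 on the opposite strand, whose median went from 6.09 CPM in parental cells to 4.73 CPM in PGCC (log2 fold change -0.45, adjusted p = 0.0455 by edgeR), and the annotated transcript CTC-241F20.3, which rose (0.78, adjusted p = 0.0110 by edgeR). It also overlaps the protein-coding C19orf68 on its own strand, with a median of 8.58 CPM in parental cells and 8.49 CPM in PGCC (0.13, adjusted p = 0.574 by edgeR). Use of strand in the counting is not given in the sources used here, so counts of overlapping genes are uncertain.

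ZNF714 and ZNF530 rose by more than 2-fold at higher counts. ZNF714 (21264965 to 21308073, plus strand) had 4.58, 6.18 and 8.42 CPM as the lowest, median and highest parental library. In PGCC the same values were 13.6, 14.1 and 17.4 CPM, a log2 fold change of 1.22 ± 0.16 (adjusted p = 2.52e-05, edgeR). All PGCC libraries were above all parental ones, and no KRAB match was found in its reading frame. ZNF530 (58111253 to 58124090, plus strand), a KRAB gene near the end of the long arm, went from 3.71, 4.36 and 6.14 CPM to 8.96, 9.20 and 10.4 CPM. Its log2 fold change was 1.04 ± 0.14 (adjusted p = 5.2e-05, edgeR), again without overlap. ZNF430 (21203426 to 21242856, plus strand), the neighbour of ZNF714 in the same run of genes, rose from 6.50, 11.8 and 13.9 CPM to 15, 19.2 and 22.0 CPM. The change was 0.81 ± 0.17 (adjusted p = 0.00127, edgeR), and its groups did not overlap either.

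The other rises were of genes with few counts or with overlapping groups. ZNF699 (9404951 to 9420514, minus strand) had 0.277, 0.483 and 0.641 CPM in parental cells and 1.06, 1.57 and 3.23 CPM in PGCC, 1.92 ± 0.32 on the log2 scale. It had between 4 and 11 counts in a parental library and between 21 and 58 in a PGCC library, and the groups did not overlap. It was past the filter's level in 1 of 6 parental and 6 of 6 PGCC libraries, so that it was tested because it was high in PGCC and its call is no support for a rise. ZNF426 (9638667 to 9649303, minus strand), in the same run, went from 0.346, 0.436 and 0.662 CPM to 0.504, 0.935 and 1.45 CPM, with overlap. The same holds for it, with 1 of 6 and 5 of 6 libraries past that level. Its change of 0.97 ± 0.29 lost the threshold without replicate 6, at 0.72 (adjusted p = 0.0564, edgeR). ZNF565 (36673188 to 36737159, minus strand) rose from 1.02, 2.06 and 2.43 CPM to 3.11, 3.58 and 4.50 CPM, 0.93 ± 0.20 (adjusted p = 0.00196, edgeR). ZNF565 overlaps ZNF146 on the opposite strand, a gene with many more counts that fell in PGCC, and their groups moved in opposite directions.

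ZNF274 is known to bind the 3' ends of zinc finger genes and to recruit TRIM28 and SETDB1 there, and it carries a SCAN domain beside its KRAB boxes. It lies at 58694396 to 58724928 on the plus strand. Its parental libraries ran from 11.1 through a median of 13.8 to 25.2 CPM and the PGCC libraries from 20.7 through 24.9 to 28.6 CPM, with overlap. The log2 fold change was 0.58 ± 0.21 (adjusted p = 0.0306, edgeR). The level was higher in PGCC in all 6 same-numbered pairs, which was a condition for naming the gene and is no support for a rise. The change came to 0.17 in replicates 4 and 5 against 0.90 in the remaining 4, and its adjusted p by edgeR lay between 0.068 and 0.107 when any of replicates 1, 2, 3 and 6 was absent. With LCL521 in both groups it was 0.70 ± 0.16 (adjusted p = 0.00224, edgeR).

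Among the falls, that of ZNF446 was the largest, and ZNF497, ZNF235, ZNF580 and ZNF285, given below, also fell by more than ZNF77. ZNF446 (58985384 to 58992597, plus strand), a gene with SCAN and KRAB domains, had 15.2, 18.0 and 19.1 CPM as the lowest, median and highest parental library. In PGCC it had 4.48, 7.46 and 8.47 CPM, with a log2 fold change of -1.31 ± 0.15 (adjusted p = 8.72e-06, edgeR), the largest fall of the 123. Its highest PGCC library was well under its lowest parental one. Its transcript shares 53.4% of its stretches of 100 bases with other genes, most with the nearby ZNF324, so its counts may have been split, and it overlaps SLC27A5 on the opposite strand, which gave 0.08 (adjusted p = 0.606, edgeR). ZNF77 (2933216 to 2944969, minus strand), whose promoter holds the 6 CCAAT boxes shown above, went from 4.93, 6.13 and 8.10 CPM to 2.53, 3.40 and 4.15 CPM. The change of -0.90 ± 0.17 (adjusted p = 0.000562, edgeR) came without overlap.

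ZNF17, ZNF324B, ZNF112 and ZNF561 fell by between 1.72-fold and 1.84-fold, and all 4 have a KRAB match. ZNF17 (57922531 to 57933307, plus strand) went from 6.96, 10.7 and 12.5 CPM to 4.48, 5.67 and 6.45 CPM, -0.88 ± 0.16 (adjusted p = 0.000378, edgeR). It overlaps ZNF548, which fell as well (-0.48, adjusted p = 0.0162, edgeR), and shares 9.96% of its 100-base stretches. ZNF324B (58962971 to 58969200, plus strand), which shares 10.8% of its 100-base stretches, most with ZNF324, went from 12.6, 18.7 and 22.5 CPM to 8.97, 9.66 and 11.5 CPM, -0.82 ± 0.15 (adjusted p = 0.00044, edgeR). ZNF324 itself fell by 0.36 on the log2 scale (adjusted p = 0.0223, edgeR). ZNF112 (44830708 to 44871377, minus strand) went from 2.67, 3.55 and 4.17 CPM to 1.49, 2.06 and 2.40 CPM, -0.79 ± 0.17 (adjusted p = 0.0015, edgeR). ZNF112 shares 10.3% of its 100-base stretches with other genes. ZNF561 (9715356 to 9732075, minus strand) had the smallest error of the 4, with 18.5, 19.7 and 21.7 CPM against 10.7, 11.2 and 13.4 CPM and a change of -0.78 ± 0.09 (adjusted p = 1.26e-05, edgeR). Its neighbour ZNF562 fell by 0.38 (adjusted p = 0.0026, edgeR), and ZNF561 shares 0.131% of its 100-base stretches with other genes. Parental and PGCC libraries did not overlap for any of ZNF17, ZNF324B, ZNF112 and ZNF561.

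Lower counts or smaller changes were seen in most of the other genes called. ZNF235 (44732882 to 44809199, minus strand) had 1.57, 1.92 and 2.45 CPM in parental cells and 0.363, 0.989 and 1.33 CPM in PGCC (-1.12 ± 0.27, adjusted p = 0.00315, edgeR). ZNF497 (-1.19, adjusted p = 0.0154) and ZNF285 (-0.92, adjusted p = 0.00879) were of similar level and size by the same edgeR test. ZNF653 (11594242 to 11616738, minus strand) fell by 0.66 ± 0.13 and ZNF566 (36936021 to 36980804, minus strand) by 0.72 ± 0.18. ZNF254 (24216276 to 24312654, plus strand) fell by 0.57 ± 0.14, and the groups did not overlap for any of these genes. ZNF653 shares 17.4% of its 100-base stretches with other genes. It overlaps ECSIT on its own strand, which also fell (-0.35, adjusted p = 0.00125, edgeR). ZNF613 (52430400 to 52452012, plus strand) fell by 0.63 ± 0.20 (adjusted p = 0.0202, edgeR) with overlap, and lost the threshold without replicate 1, 5 or 6 or without replicates 4 and 5, with adjusted p between 0.0528 and 0.0795. ZNF473, a component of the machinery that processes histone pre-mRNA, fell by 0.37 (adjusted p = 0.0281, edgeR).

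The genes with the highest levels fell too, apart from ZNF121. ZNF787 (56598732 to 56632649, minus strand) had 126, 146 and 196 CPM in parental cells and 85.1, 94.3 and 111 CPM in PGCC, a change of -0.63 ± 0.10 (adjusted p = 0.000231, edgeR). ZNF579 (56088899 to 56092211, minus strand) went from 88.5, 106 and 116 CPM to 72.3, 80.1 and 87.1 CPM, -0.38 ± 0.09 (adjusted p = 0.00211, edgeR). ZNF146 (36705504 to 36729676, plus strand) went from 155, 170.1 and 197 CPM to 131, 135 and 142 CPM, -0.34 ± 0.07 (adjusted p = 0.00194, edgeR). None of these overlapped between the groups, so the falls were small but clear of the spread between libraries. ZNF121 (9671029 to 9695209, minus strand) had 50.0, 54.4 and 77.0 CPM in parental cells and 47.2, 80.1 and 111 CPM in PGCC, 0.43 ± 0.17 (adjusted p = 0.0544, edgeR). It was higher in 5 of 6 pairs, and with the replicate block it passed the threshold at 0.40 (adjusted p = 0.0151, edgeR).

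**Figure D3:**
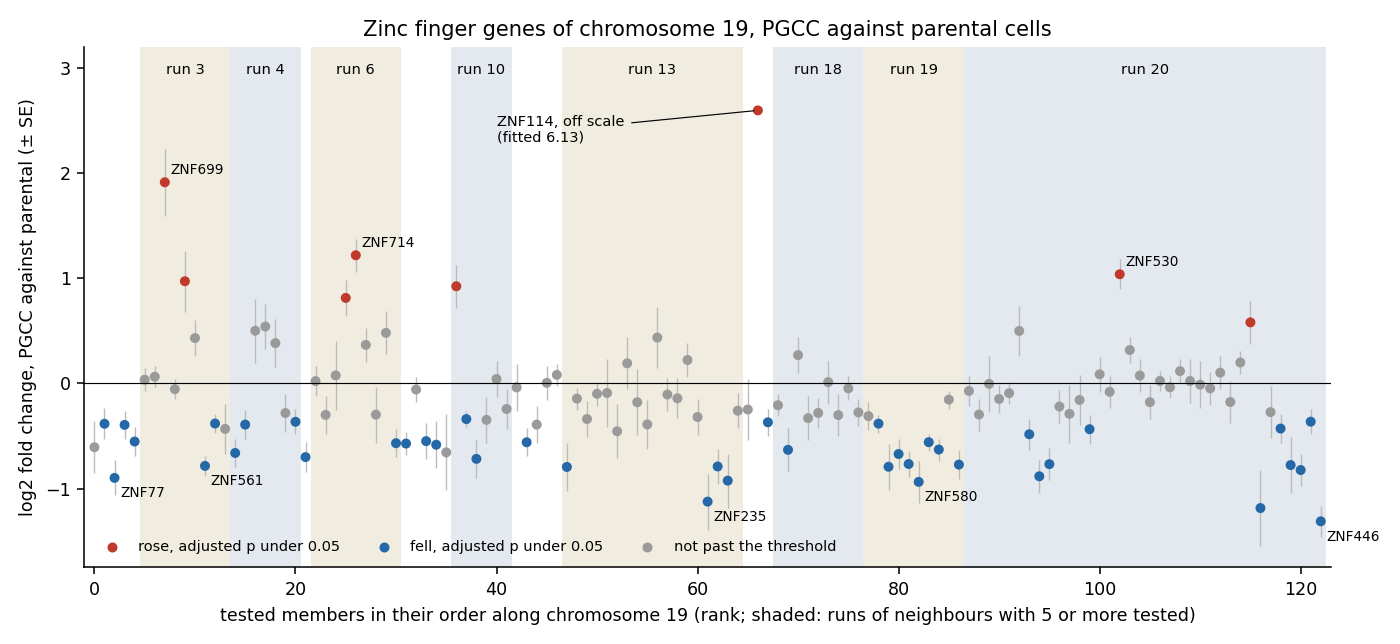
Log2 fold change of PGCC against parental cells (y axis, ± SE) for the 123 tested genes in their order along chromosome 19 (x axis, rank). Red points rose, blue points fell and grey points did not pass an adjusted p of 0.05, and shading marks runs of neighbours with 5 or more tested genes. All 10 tested genes of run 19 lie below 0.

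Chromosome 19 carries these genes in 20 runs, if a gap of more than 500000 bases between neighbours ends a run, and 10 of the runs hold 5 or more rows, 243 of the 257. The calls are given by run beside the 23.1% of all genes tested that rose and the 24.3% that fell, and no test of the difference between runs was made. In run 19 (55987699 to 57183151), 8 of 10 tested genes fell (80.0%) and none rose, with a median of -0.65. In run 20 (57702868 to 58992597), 10 of 36 fell (27.8%) and 2 rose, ZNF530 and ZNF274, with a median of -0.12. In run 13 (44029649 to 45004576) 4 of 18 fell (22.2%), with a median of -0.22, so that the share of falls in runs 20 and 13 was near that of all genes. In run 18 (52074551 to 54083523) 1 of 9 fell, with a median of -0.28. Medians above 0 were found in 2 of the runs with 5 or more tested genes, run 6 (19779605 to 24312654), with ZNF714 and ZNF430 rising and ZNF254 falling of 9 tested and a median of 0.08, and run 3 (8575462 to 9903856), with ZNF699 and ZNF426 rising, ZNF561 and ZNF562 falling of 9 and a median of 0.04. Run 4 (11594242 to 12750912) had 3 falls of 7 and run 10 (36673188 to 38307940) 2 falls and 1 rise of 6.

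Run 19 was made of unlike genes. Its 10 tested genes included 9 without a KRAB match. The transcripts of these 9 had between 57.8% (ZNF444) and 71.1% (ZNF865) GC. The falls were those of ZNF579 and ZNF787, given above, ZNF524, ZNF865, ZNF784, ZNF580, ZNF581 and ZNF71. ZNF580 (56146382 to 56154835, plus strand) went from 20.5, 31.6 and 51.4 CPM to 15.7, 16.8 and 21.9 CPM, -0.94 ± 0.20 (adjusted p = 0.00154, edgeR), with overlap. It overlaps ZNF581 and CCDC106 on its own strand, and both also fell, ZNF581 from 54.1, 57.5 and 68.2 CPM to 36.5, 39.6 and 42.5 CPM (-0.56 ± 0.08, adjusted p = 6.99e-05, edgeR) and CCDC106 by 0.64. Reads in the stretches that these 3 genes share cannot be told apart. ZNF524 (56111388 to 56114504, plus strand) went from 8.65, 9.38 and 16.1 CPM to 4.34, 5.81 and 9.96 CPM (-0.79 ± 0.22, adjusted p = 0.00864, edgeR), with overlap. ZNF784 (-0.77), ZNF71 (-0.77, the 1 tested gene of the run with a KRAB match) and ZNF865 (-0.67) fell by like amounts. The 2 tested genes not called were ZNF628 (-0.31) and ZNF444 (-0.15). The other 6 genes of the run, ZNF582, ZNF583, ZNF667, ZNF471, ZNF470 and ZNF835, had between 0 and 5 counts over all 24 libraries, and the first 5 of them have a KRAB match.

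The genes were also divided by their protein and by base composition. A KRAB match, defined as at least 12 identities in 40 residues to a consensus of the genes' own frames, was found in 218 rows, of which 98 were tested, and not found in 34 rows, of which 25 were tested. The other 5 rows had no complete reading frame in the annotation used and were not tested. Of the 98 KRAB genes 7 rose and 28 fell, 7.14% and 28.6%, with a median of -0.21, so that the share of falls was near the 24.3% of all genes tested and the share of rises below their 23.1%. Of the 25 without a match 1 rose and 13 fell, 4.00% and 52.0%, with a median of -0.34. The 13 falls included every fall of run 19 except that of ZNF71. The genes without a match had higher levels, with a median of 7.14 CPM per kilobase against 2.01, and higher GC content, 61.7% against 43.2%.

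GC content moved with the class, and the falls were most frequent in GC-rich genes. Both groups share genes with run 19, whose 9 tested genes without a KRAB match all had at least 55% GC. All of these 9 were called lower except ZNF628 and ZNF444. Run 19, the genes without a match and the GC-rich genes are therefore not separate patterns, and their separate parts were not tested. Of 21 tested genes with at least 55% GC in their transcript, 14 fell and 0 rose, with a median of -0.56, while the medians of the 3 classes below 55% lay between -0.24 and -0.15. Of 3764 genes of the whole table with at least 55% GC, 21.9% rose and 25.1% fell, with a median of -0.03. The 3 tested KRAB genes with at least 55% GC all fell, and with LCL521 in both groups 2 of the 3 did. They are ZNF446, ZNF324B and ZNF324, neighbours in run 20 that share sequence, so they are not 3 separate cases. Of the 7 genes without a match below 55% GC, 2 fell and 1 rose, and 2 fell and 3 rose with LCL521 in both groups. Spearman's rho between GC content and log2 fold change was -0.25 over the 123 genes, which share their libraries and in part their sequence, and -0.01 over 13456 of all genes tested. With an offset for GC content in each library, 9 zinc finger genes rose and 42 fell, against 23.6% and 25.0% of all genes. The number of finger patterns gave a rho of 0.06 and the level per kilobase -0.05. By number of fingers, 10 of 21 genes with 7 or fewer fell (47.6%) and 14 of 40 with 8 to 11 (35.0%). With 12 to 15 fingers 10 of 40 fell (25.0%) and with 16 or more 7 of 22 (31.8%), beside 24.3% of all genes tested. The tested genes with 7 or fewer had a median GC content of 57.8%, so this class is not separate from the GC-rich genes.

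**Figure D4:**
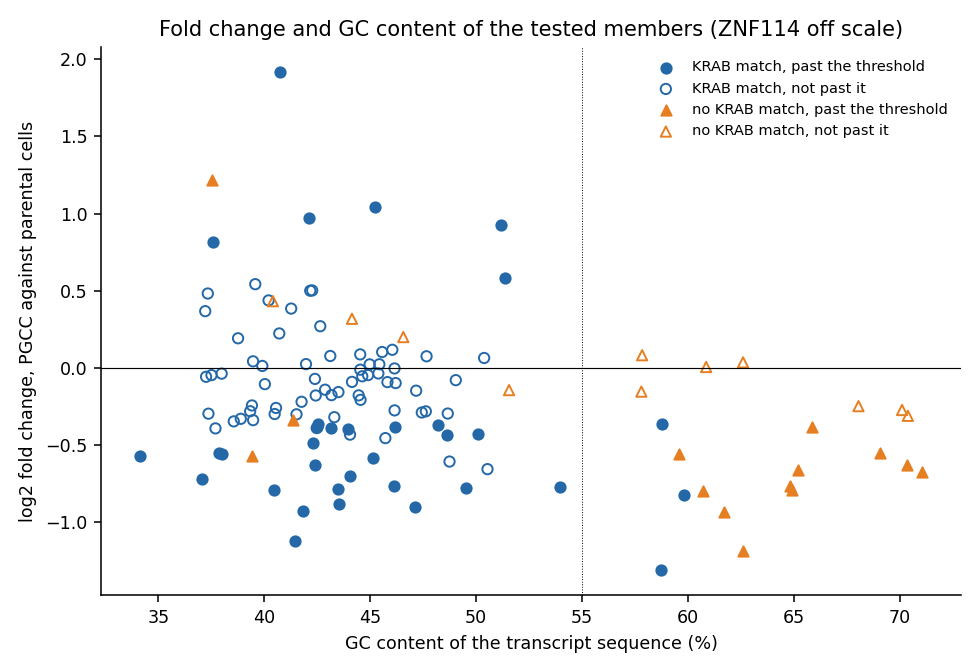
GC content of the transcript in percent (x axis) and log2 fold change of PGCC against parental cells (y axis) for the tested genes, with ZNF114 off the scale. Circles have a KRAB match, triangles do not, and filled symbols passed an adjusted p of 0.05. To the right of the dotted line at 55%, 14 of 21 genes fell and 0 rose.

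The same contrast was measured in a second set of 12 libraries, with LCL521 in both groups. Of 124 genes tested between PGCC_LCL and UT_LCL, 10 rose and 39 fell, against 25.0% and 23.9% of 13818 genes, and the median was -0.15. All PGCC_LCL libraries lay below all UT_LCL libraries for 25 genes and above for 5, 20.2% and 4.03%, against 13.7% and 14.4% of all genes. With the replicate block 15 rose and 40 fell, against 29.5% and 26.8% of all genes (56.3% in either direction). The libraries of the 2 contrasts are different, although they come from the same 6 runs of the experiment. Of the genes that rose, 7 passed the threshold in both (87.5% of 8 and 70.0% of 10). ZNF114 and ZNF699 are among the 7, and they entered the test through the PGCC libraries, so their calls are no support for a rise. Of the genes that fell, 36 passed in both (87.8% of 41 and 92.3% of 39), and 0 were called in opposite directions. The shares of all genes called in both contrasts are not given here, so the overlap is not a trait of the zinc finger genes.

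The largest changes were of like size with LCL521. ZNF714 went from 4.53, 6.41 and 7.89 CPM in UT_LCL to 13.9, 15 and 17.5 CPM in PGCC_LCL (1.30 ± 0.15, adjusted p = 7.73e-06, edgeR). ZNF530 gave 1.18 ± 0.18 and ZNF699 1.89 ± 0.34. ZNF114 had 2 counts over the 6 UT_LCL libraries, both in replicate 1, and 127 over the 6 PGCC_LCL libraries. The ratio of rates was 64.0 (95% exact interval 17.3 to 534, counting error only). The limit given above for the calls of ZNF114 and ZNF699, which were low in parental cells, holds here too. ZNF446 went from 15.6, 18.3 and 20.2 CPM to 6.70, 8.73 and 10.1 CPM (-1.07 ± 0.13, adjusted p = 1.38e-05, edgeR), ZNF561 changed by -0.86 ± 0.11, ZNF17 by -1.05 ± 0.15 and ZNF77 by -1.01 ± 0.14. Run 19 had 9 falls of 10 tested and a median of -0.65, as without LCL521. ZNF426, which had risen without LCL521, gave 0.41 ± 0.39 (adjusted p = 0.403, edgeR). The genes called only with LCL521 were ZNF121 (0.45 ± 0.14, adjusted p = 0.017), ZNF431, ZNF134, ZNF554, ZNF628 and ZNF506 by the same edgeR test. The call of ZNF506 (-0.84, adjusted p = 0.0349) was lost with the replicate block (adjusted p = 0.06, edgeR).

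**Figure D5:**
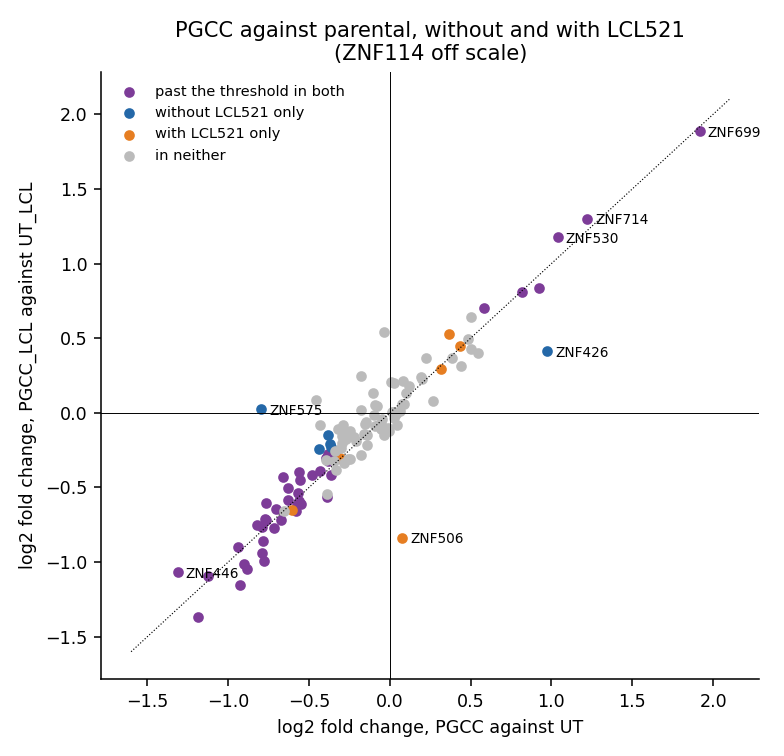
Log2 fold change of PGCC against parental cells without LCL521 (x axis) and with LCL521 in both groups (y axis) for the tested genes, with ZNF114 off the scale. Colours give the contrast in which a gene passed an adjusted p of 0.05, and the dotted line marks equal values. ZNF714, ZNF530 and ZNF699 lie at the upper right and ZNF446 at the lower left, while ZNF575, ZNF426 and ZNF506 lie farther from the line than most.

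LCL521 was compared with its control within each population, which asks whether inhibition of ASAH1 changes these genes. None of the 120 zinc finger genes tested in parental cells passed the threshold, nor any of the 123 in PGCC. In parental cells 0 of 13277 genes passed (0%), and in PGCC 1 of 14151 did (0.00707%), so the genes were at the level of the whole table. At an unadjusted p under 0.05 the counts of zinc finger genes were 0 in parental cells and 1 in PGCC by edgeR, and 0 and 1 by DESeq2, which also called 0 after adjustment. The replicate block called 0 of them in both populations (5 and 3 at an unadjusted p under 0.05), beside 0.866% (0.520% higher, 0.346% lower) and 1.65% (1.08% higher, 0.572% lower) of all genes. The CPM of the LCL521 libraries lay wholly above or below those of the controls for 0 zinc finger genes in either population, against 0.0226% above and 0.00753% below of all genes in parental cells, and 0.0707% above and 0.0141% below in PGCC. The medians were -0.00 in both populations. The 95% intervals of single genes reached, at the median, 0.34 to either side of the log2 estimate in parental cells and 0.29 in PGCC. They are not adjusted for the number of genes tested, so larger differences than these could also miss the threshold. All but 1 gene in each population had an estimate within 0.50 of 0, the exceptions being ZNF575 in parental cells and ZNF506 in PGCC.

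In parental cells the smallest p-values were those of ZNF155 (-0.37 ± 0.19), ZNF575 and ZNF350 (0.26 ± 0.15), the last known as ZBRK1, a partner of BRCA1. ZNF575, with 6 to 25 counts per library in these groups, had 0.902, 1.16 and 1.59 CPM in UT and 0.368, 0.807 and 1.44 CPM in UT_LCL, -0.57 ± 0.31 with adjusted p = 1 by edgeR. In PGCC they were ZNF506, ZNF446 (0.28 ± 0.16) and ZNF846 (0.38 ± 0.23). ZNF506, with 4 to 18 counts per library, had 0.345, 0.817 and 1.12 CPM in PGCC and 0.209, 0.479 and 0.702 CPM in PGCC_LCL, -0.75 ± 0.33 with adjusted p = 1 by edgeR. The groups overlapped for every one of these genes.

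Whether LCL521 acted differently in the 2 populations was tested as an interaction over all 24 libraries. None of 125 zinc finger genes passed the threshold (2 at an unadjusted p under 0.05, and 0 by DESeq2), and 0 of 14555 genes did (0%). The replicate block also called 0, with 2 at an unadjusted p under 0.05. The smallest p-values were those of ZNF506 (-0.93 ± 0.45), ZNF575 (0.81 ± 0.39) and ZNF546 (0.56 ± 0.34), each with adjusted p = 1 by edgeR. ZNF575 was lower in PGCC than in parental cells without LCL521 (-0.79, adjusted p = 0.0106, edgeR) and not with it (0.03, adjusted p = 0.956, edgeR), a difference that did not pass the threshold as an interaction.

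The partners through which KRAB proteins act were mixed. Of a list of 35 chromatin genes, 34 were in the table and tested, and between PGCC and parental cells 6 rose and 9 fell, with a median of -0.13, against the 23.1% and 24.3% of all genes given above. With LCL521 in both groups 8 rose and 8 fell, and LCL521 itself changed 0 in either population. TRIM28, the scaffold, had 712 to 1314 CPM in parental cells and 853 to 1008 CPM in PGCC, -0.20 ± 0.15 (adjusted p = 0.291, edgeR). Its value was -0.36 (adjusted p = 0.000732, edgeR) without replicates 4 and 5 and 0.26 (adjusted p = 0.0745, edgeR) in those replicates alone, so no direction is given for it. SETDB1, the methyltransferase, fell from 37.9 to 54.2 CPM to 29.3 to 34.5 CPM (-0.42 ± 0.09, adjusted p = 0.00215, edgeR). SMARCAD1, a chromatin remodeller, changed by -0.50 ± 0.10 and MBD3, a subunit of the NuRD complex, by -0.50 ± 0.09. CBX5 (HP1 alpha) rose from 128 to 144 CPM to 168 to 267 CPM (0.76 ± 0.10, adjusted p = 2.2e-05, edgeR). RBBP7, a histone binding protein, rose by 0.67 ± 0.08, and DNMT1, the maintenance DNA methyltransferase, rose from 108 to 204 CPM to 285 to 319 CPM (0.89 ± 0.13, adjusted p = 0.000107, edgeR). DNMT1, CBX5 and RBBP7 rose in the same libraries in which the proliferation markers were higher, and the part of the proliferation markers in these rises was not tested.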

How the data were processed

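RNA of 24 PPC1 cultures was sequenced. The authors deposited whole-number read counts per gene, not normalized, in one table with gene coordinates and lengths. Per the study's methods reads were aligned with STAR and counted with HTSeq, and the submitters' processing notes name hg19. The annotation release and the use of strand are not given in the sources used here, so overlapping genes and close copies are uncertain. Totals were 14835246 to 19906601 counts per library. PGCC and parental cells differ in radiation and filtration.

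Counts were filtered with filterByExpr (minimum count 10, minimum total 15), scaled by TMM and tested with edgeR 4.0.16 (R 4.3.3) by the quasi-likelihood test on the 12 libraries of 2 conditions, or on all 24 for the interaction, over all genes. Benjamini-Hochberg adjustment covered all genes tested, and calls needed an adjusted p under 0.05 at any fold. Standard errors were taken as the absolute log2 fold change over the square root of F, intervals are at 95%, and CPM are counts scaled to a library total of 1000000. Alternatives used DESeq2 1.42.0, limma 3.58.1 (voom), other scaling and filters, offsets for gene length and GC content, the replicate block, and subsets of replicates. The fits were tested on simulated counts.

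The genes and lists were chosen with earlier results of these data known. Named genes are the 8 largest rises and falls among called genes averaging 1 log2 CPM or more, with 1 direction in all 6 pairs (5 rises qualified), the 3 smallest p-values of each LCL521 comparison, the 5 highest levels per kilobase, the 4 highest without a KRAB match, and the largest rise and fall of each run with 5 or more tested genes. ZNF114, ZNF426 and the further genes of run 19, of the block and of single comparisons were named after their values were seen. Same-numbered libraries come from the same run of the experiment. Their deviations from the condition means over 14555 genes correlated in every pair (lowest 0.237 and 0.171 between populations, 0.458 and 0.385 between LCL521 and control). Since replicates 4 and 5 stood apart in every condition, positive values can arise without pairing of the other numbers, so the correlations do not show that pairing. Values of some marker genes are not reported here. Promoters came from RefSeq (GRCh38.p14). KRAB matches, finger patterns, GC content and shared stretches of 100 bases came from transcripts of the reference annotation, translated where needed.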

Additional observations from a re-analysis of the deposited data

Results flagged for a closer look

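In 128 groups of 6 libraries, over 32 named genes, 5 had a highest or lowest library whose gap to the next, divided by the range of the group, was above Dixon's 95% critical value, and chance flags about 1 in 20 groups. ZNF561 was highest in replicate 2 of PGCC at 13.4 CPM (median of the others 11.2, gap over range 0.714). ZNF546 was highest in replicate 5 of PGCC at 2.42 CPM (median of the others 1.45, 0.630). ZNF121 was lowest in replicate 1 of PGCC_LCL at 56.1 CPM (median of the others 85.0, 0.679). ZNF114 had its only parental count in replicate 5 of UT, 0.0582 CPM, with the other 5 libraries at 0, and its 2 UT_LCL counts in replicate 1, 0.126 CPM, with the other 5 at 0. With 5 libraries at 0 the ratio is 1 for any count in the remaining one, so these 2 groups stand apart by 1 and 2 counts only. No cause was tested.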

How the results depend on the processing

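Over 22 settings and 42 values of named genes, 881 kept direction and side of the threshold, 15 passed it newly, 14 lost it and 1 reversed, and 34 of the 42 values did none of these. TRIM28 reversed to 0.26 in replicates 4 and 5 alone. For PGCC against parental cells the number that rose was 8, beside 23.1% of all genes. It was 14 under library totals (27.7% of all genes), 15 with the replicate block (27.9%) and 13 in replicates 4 and 5 alone (23.6%). With the block and a gene length offset it was 16, and with the block and a GC content offset 15. With the block and without replicates 4 and 5 it was 17. The shares of all genes for the block combined with an offset or a subset are not given here. The number that fell stayed within 1.5 times of 41 in every setting. Their median was -0.10 without a filter on low counts. For PGCC_LCL against UT_LCL the median of -0.15 became -0.10 under library totals and -0.12 without a filter. It was -0.12 with at least 10 counts in every library and -0.18 with all 24 libraries in one fit. A GC content offset gave -0.18, and replicates 4 and 5 alone gave -0.22. In those replicates 16 rose, beside 26.3% of all genes. The median of UT_LCL against UT was 0.0224 under library totals. Leaving out each replicate in turn gave 7 to 9 rises, 31 to 38 falls and medians of -0.28 to -0.19 without LCL521. With LCL521 in both groups it gave 7 to 11 rises, 32 to 35 falls and medians of -0.19 to -0.15. The LCL521 comparisons had 0 calls, and the shares of all genes in these fits are not given here. ZNF121 passed the threshold in 13 settings. Apart from the calls already given, the block changed no call of a named gene. In replicates 4 and 5 alone ZNF699 (adjusted p = 0.0573), ZNF254 (0.0531) and MBD3 (0.159) did not pass edgeR's threshold. The settings with the GC content offset and with replicates 4 and 5 alone were chosen after the data were seen. The causes of these shifts were not tested. Genes under about 10 counts per library could not be tested, which leaves 134 of the 257 without a comparison.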
